A study of Caenorhabditis elegans with 4 samples.

Results

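The 374 sites described here are all binding sites of the transcription factor ZTF-4 that the combined site list of the study places on chromosome III of Caenorhabditis elegans, out of 1828 sites on 6 chromosomes. They were picked out by chromosome alone, and no value of a site entered that rule. The chromosome itself was chosen with earlier results of these data known. Replicate evidence came from the 169 sites on III of 744 in the list of ChIP replicate 1 and the 176 sites on III of 813 in the list of ChIP replicate 2. ChIP-seq (chromatin immunoprecipitation followed by sequencing) was done on whole hermaphrodite larvae at the L2 stage, with 2 ChIP samples and 2 input samples. Per the labels, every sample came from strain OP322. It carries the mutation unc-119(ed3) and the transgene wgIs322, in which ztf-4 is fused to the tags TY1, EGFP and FLAG and is accompanied by a working copy of unc-119, written unc119(+). Worms grew at 20 degrees Celsius on HB101 bacteria, and 2% formaldehyde was used for fixation. The ChIP samples were pulled down with a goat antibody against green fluorescent protein (GFP), and the input samples are the matching control DNA without the pull-down. All samples share the transgene and the unc-119 mutation, the transgene was made by biolistic transformation and its strain was not outcrossed. The bound protein is thus the tagged copy, in a mixture of all cell types of the larva. The origin of the replicates in separate cultures is not stated, and their spread may be technical.

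ZTF-4 belongs to a family of worm proteins named for zinc fingers, small folds held by a zinc ion that many transcription factors use to read DNA. In ChIP-seq, a place where the tagged factor sits on chromatin, directly or through partner proteins, yields more fragments than the input does, and a peak caller reports that stretch as a site. Worm autosomes have gene-rich, rarely recombining centres and outer arms richer in repeats and in recombination. Worm chromatin also holds places where many unrelated factors are detected together, and a single-factor experiment cannot separate these from places read by ZTF-4 alone. The gene unc-119, whose wild-type copy came with the transgene, itself lies on chromosome III. Whether a site falls on it was not tested, because no gene annotation of the files' genome release was used.

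Sites are stretches of WormBase WS180 with 1-based ends, called with PeakSeq, and the strength of a site is the authors' q-value, given also as −log10 q, which is larger for a stronger site. No read counts or summits were given, so depth is unknown. The highest q on III was 0.000148 among combined sites, and it was 9.11e-05 for replicate 1 and 9.03e-05 for replicate 2. A site that is missing from a list is therefore not shown to be unbound. Together the combined sites spread over 348615 bp, which is 2.53% of the span of III, against 1.6% of the span of the other 5 chromosomes. Replicate 1 sites covered 1.04% of III and replicate 2 sites 1.21%, against 0.7% and 0.808% of the other chromosomes. The span of a chromosome is the highest site end in any list, 13764036 bp on III.

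Chromosome III carried more sites per length than the other autosomes, in its centre and in its pooled outer parts. The left outer part did not share in this. In the combined list III held 27.2 sites per Mb, against 17.8 per Mb on I, II, IV and V together, a ratio of 1.53 (95% interval 1.36 to 1.71, two-sided exact binomial test, adjusted p = 1.91e-11 over 3 tests). In the middle of the chromosome, from 25 to 75% of the span, the density was 36 sites per Mb on III and 22 per Mb on the other autosomes, a ratio of 1.64 (1.41 to 1.89, exact binomial adjusted p = 2.01e-10). In the outer parts it was 18.3 per Mb on III and 13.6 per Mb on the others, a ratio of 1.35 (1.1 to 1.64, exact binomial adjusted p = 0.0041). The outer parts were unlike each other. The first 25% of the span held 12.2 sites per Mb on III and 13.6 on the others, and the last 25% held 24.4 on III and 13.6 on the others. These outer parts were not tested singly. The excess was present in each ChIP sample. Replicate 1 held 12.3 sites per Mb on III against 6.84 on the other autosomes, a ratio of 1.8, and replicate 2 held 12.8 against 7.61, a ratio of 1.68 (exact binomial adjusted p = 8.16e-10 and 3.35e-08). III was the densest of the 6 chromosomes in each of the 3 lists. In the combined list the other autosomes singly held 23.7 (I), 21.3 (IV), 15.5 (II) and 12.3 (V) sites per Mb. The test treats sites as independent, while they lie in groups. With sites within 20 kb of each other counted once, III held 145 groups, or 10.5 per Mb, against 8.67 per Mb on the other autosomes, and none of the 3 ratios passed the threshold (1.21, 1.17 in the centre and 1.28 in the outer parts, exact binomial adjusted p = 0.115, 0.204 and 0.128). In groups per length III was close to I, with 154 groups over 15067644 bp, and to IV, with 178 over 17470539 bp. Groups were sparser on II, with 116 over 15231081 bp, and on V, with 147 over 20843630 bp.

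**Figure D1:**
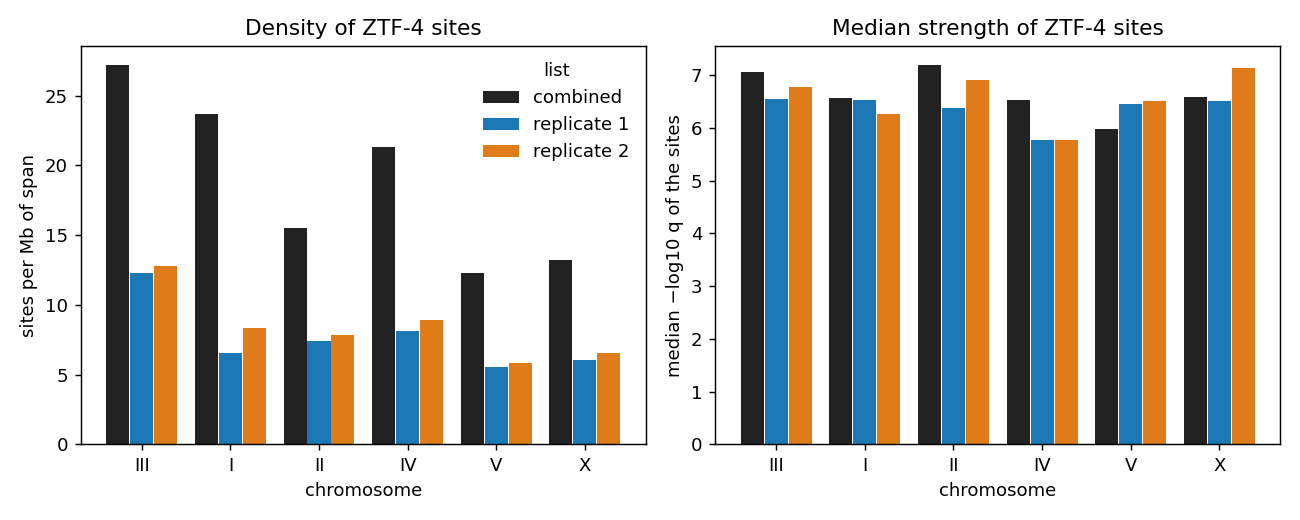
Sites per Mb of span (left) and median −log10 q of the sites (right) for chromosome III and then the other 5 chromosomes, with a bar for each of the combined, replicate 1 and replicate 2 lists. III has the tallest density bar in every list, at 27.2, 12.3 and 12.8 sites per Mb, while its median strength is the highest of the 6 chromosomes in replicate 1 and is exceeded by that of II in the combined list and by those of II and X in replicate 2.

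In strength, the sites on III lay close to those of the other chromosomes. Their median −log10 q was 7.07 in the combined list, against 6.54 on the other 5 chromosomes. It was 6.56 on III against 6.31 in replicate 1, and 6.79 against 6.38 in replicate 2. Of the 374 sites, 118 had a q under 1e-10, or 31.6% (95% Wilson interval 27 to 36.4%), against 29.4% of all combined sites and 28.8% (26.5 to 31.2%) of those elsewhere. The share on III is close to that of the whole list. III ranked 2 of 6 for it, behind II with 34.3%. The median site was 612.5 bp wide on III and 643 bp wide elsewhere. Among the 100 strongest combined sites of the genome 18 lay on III, or 18%, against its 20.5% of all combined sites.

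Along the chromosome the sites formed a broad central rise, a thin stretch from 80 to 90% of the span and a dense right end. From 40 to 50% of the span III held 59 combined sites, or 42.9 per Mb, and the replicate lists held 27 and 28. The other 4 autosomes also rose in the middle, to 24.2 per Mb there and 30.5 from 50 to 60%, where III held 33.4. The first 10% of III held 17 combined sites (12.4 per Mb), with 7 in replicate 1 and 8 in replicate 2. The thin stretch from 80 to 90% held 16 (11.6 per Mb), with 6 and 5. In these stretches the other 4 autosomes together held 12.4 and 12.5 per Mb, near the values of III. The last 10% of III held 41 (29.8 per Mb), with 20 in each replicate list. On the other 4 autosomes together the last 10% held 10.6 sites per Mb, and singly between 7.68 on V and 12.6 on I. That difference was seen in the data and was not tested. The 41 sites of the right end fell into 13 groups at a 20 kb spacing, or 9.44 groups per Mb, against 5.72 to 7.3 groups per Mb on the other autosomes and 9.08 on X. The left outer 25% of III had 42 combined sites, beside 16 of replicate 1 and 19 of replicate 2. In the replicates these came to 4.65 and 5.52 per Mb, against 4.96 and 4.9 on the other 4 autosomes. The right outer 25%, from position 10323027, had 84 combined sites, beside 35 of replicate 1 and 39 of replicate 2. There the replicates stood at 10.2 and 11.3 per Mb, against 5.77 in each on the other 4 autosomes.

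**Figure D2:**
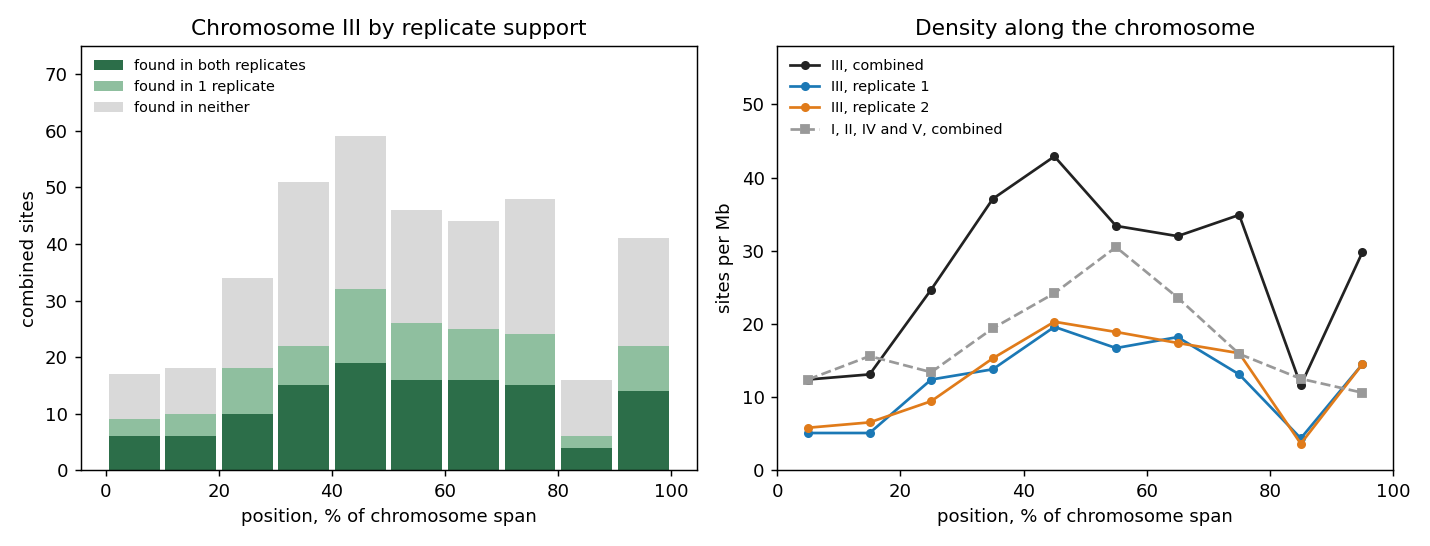
Combined sites on III in each 10% of the chromosome span (left), stacked by the replicate lists they overlap, and sites per Mb along III in the 3 lists with the combined density of I, II, IV and V as a dashed line (right). The centre peaks at 59 combined sites, the stretch from 80 to 90% holds 16 and the last 10% holds 41, and both replicate lists follow the same course.

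In bins of 1 Mb, the fullest began at 5000001 and counted 54 combined sites, beside 22 called in replicate 1 and 23 in replicate 2. Of its 54 combined sites 18 overlapped a site in both replicate lists, 28 overlapped none, and 17 had a q under 1e-10. Over all sites on III these shares were 32.4%, 48.1% and 31.6%, and over the whole list 28.8%, 52.4% and 29.4%. The bin was thus near the list in support and strength. The emptiest began at 2000001 and counted 9 combined sites, beside 3 called per replicate. The median full bin of III held 26 combined sites, against 17 in the other autosomes, whose bins reached from 1 to 43. Of the 13 full bins of III, 9 held more than that median of 17, 1 held as many and 3 held fewer. Over these 13 bins, replicate 1 and replicate 2 counts gave Pearson r = 0.907 and Spearman rho = 0.887, as a description since bins of a chromosome are not replicates. The longest stretches of III without a combined site were 394728 bp from 11262391, 374884 bp from 9080327 and 356078 bp from 2172552. None of these 3 stretches held a replicate site either.

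The strongest sites on III were a pair that stood apart from the rest. The strongest ran from 9050385 to 9055104 (4720 bp) with a combined q of 6.01e-187, and with 6.24e-95 in replicate 1 and 3.21e-110 in replicate 2. The next ran from 8443223 to 8447425 (4203 bp) with a combined q of 2.24e-181. Replicate 2 called it once, with 1.85e-119, and replicate 1 called a left piece with 5.47e-81 and a right one with 6.15e-11. They were ranks 4 and 5 of the whole combined list, and the replicates put them in opposite orders. The third on III, from 5756503 to 5760125, was rank 36 of the whole list, with q = 3.27e-71, 1.01e-35 and 3.83e-40 in the same lists. On the −log10 scale the combined values of these 3 sites were 186, 181 and 70.5, so the step after the second exceeds the whole range of the sites that follow.

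Among combined sites on III that both replicates support, the 20 strongest are at the same time the 20 strongest of the chromosome. They ranked 4 to 102 in the whole list. Their combined −log10 q ran from 36.8 to 186 with a median of 47.7. Replicate 1 gave 6.66 to 94.2 with a median of 20.1, and replicate 2 gave 6.73 to 119 with a median of 23.4. Replicate 2 had the lower q at 13 of the 20. Most were wide stretches. Their median width was 3652.5 bp against 612.5 bp for all sites on III, 16 were wider than 2000 bp and 13 wider than 3000 bp. Without a signal track, a single broad site cannot be told apart from several close ones. The centre held 13 of the 20, beside 66.3% of all combined sites on III.

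A few strong sites were narrow. The site from 7854244 to 7854810 was 567 bp wide, the narrowest of the 20. Its combined q was 7.3e-49. Replicate 1 gave 7.07e-29 and replicate 2 gave 3.14e-29, so the replicates nearly coincided in strength. They did so in place as well, with replicate sites from 7854387 to 7854810 and from 7854376 to 7854800. The site from 3866656 to 3867945 (1290 bp) had a combined q of 1.41e-63. Replicate 1 gave 1.31e-44 and replicate 2 gave 7.84e-43, rank 3 of III in both replicates. The site from 3902159 to 3903311 (1153 bp) had q = 6.24e-41, 1.63e-18 and 3.18e-21. In −log10 q the replicates stood at 43.9 and 42.1 at the site from 3866656 and at 17.8 and 20.5 at the site from 3902159. At the site from 10758786 to 10760260 (1475 bp) they stood at 17.1 and 33, with q = 7.14e-18 in replicate 1, 1.08e-33 in replicate 2 and a combined q of 3.03e-45.

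Others of the 20 rested on a single site of each replicate and lay across the whole chromosome. Near the left end, the site from 61846 to 66503 had a combined q of 1.23e-37, beside 2.64e-16 in replicate 1 and 8.3e-18 in replicate 2. Near the right end, the site from 13462643 to 13465772 had 2.46e-43, 3.78e-23 and 3.59e-25. Between them, the site from 832875 to 836714 had 6.43e-48, 4.32e-23 and 6.25e-20, and the site from 1615984 to 1618547 had 2.2e-49, 3.68e-29 and 5.57e-29. In these places both replicates called a site of like strength. The site from 7736496 to 7738732 was stronger in replicate 1, with q = 3.4e-27 against 3.4e-19 in replicate 2 and a combined q of 2.35e-50.

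Several strong combined sites spanned more than 1 site of a replicate. The widest site of III, from 3794778 to 3800603 (5826 bp), had q = 1.13e-59 and covered replicate 1 sites with q = 4.56e-11 and 3.33e-15 and replicate 2 sites with 4.51e-06 and 1.74e-31. The site from 12612074 to 12616205 (q = 1.41e-50) covered a left and a right site in each replicate, with q = 1.69e-14 and 3.71e-08 in replicate 1 and 5.37e-25 and 3.39e-11 in replicate 2. In both replicates the left piece was the stronger. The site from 5502401 to 5504943 (q = 2.07e-60) covered a single replicate 1 site (1.62e-29) and a pair in replicate 2 (2.28e-09 and 3.91e-23).

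The site from 7372911 to 7376879 had the lowest replicate ranks of the 20. Its combined q was 1.72e-37, rank 20 of III. Replicate 1 called 3 weak pieces there, with q = 9.08e-06, 2.2e-07 and 1.22e-05, and replicate 2 called a pair, with 1.87e-07 and 2.52e-06. The best of these ranked 80 on III in replicate 1 and 89 in replicate 2. The −log10 q of all 5 pieces added up to 28.9, against 36.8 in the combined list. The same held from 13067447 to 13071775, with a combined −log10 q of 42.3 against a sum of 25.9 over its 3 pieces, and from 4193226 to 4196907, with 37.8 against 32.3 over 4 pieces. It was less marked from 8799414 to 8802652, with 41.5 against 40.7 over 4 pieces, and from 8981568 to 8985387, with 38.9 against 38.4 over 4. At the remaining sites of the 20 with several pieces in a replicate, the combined value lay below the sum. It was 181 against 209 at the site from 8443223 and 49.9 against 55.9 at that from 12612074. At the sites from 3794778 and 5502401 it was 58.9 against 60.9 and 59.7 against 59.8.

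Over all 121 combined sites of III found in both replicates, 103 met 1 site of each replicate and 18 met more than 1 site of a replicate. The 103 were 1061 bp wide in the median and had a combined −log10 q that was a median of 0.939 times the sum of the replicate values, between 0.426 and 1.43. The 18 were 3746 bp wide in the median and had a median ratio of 1.53 to the sum of the strongest piece of each replicate. With all pieces added, the median ratio of the 18 was 1.07, between 0.746 and 1.63. These ratios describe q-values of overlapping data and carry no test.

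The first question the design raises is whether both ChIP samples mark the same places on III. Of the 169 replicate 1 sites, 130 overlapped a replicate 2 site by at least 1 bp, or 76.9% (Wilson interval 70 to 82.6%), against 79.0% over the whole list and 79.7% on the other 5 chromosomes. Of the 176 replicate 2 sites, 129 overlapped a replicate 1 site, or 73.3% (66.3 to 79.3%), against 71.5% over the whole list and 71% elsewhere. The shares on III are thus near those of the whole lists. Joined, both lists formed 211 regions on III, of which 125 (59.2%) were shared, 39 came from replicate 1 alone and 47 from replicate 2 alone. Elsewhere 433 of 735 regions (58.9%) were shared. The distance between the midpoints of the strongest replicate sites had a median of 75 bp in shared regions on III, against 68.5 bp elsewhere.

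Replicate strengths in −log10 q went together over the 125 regions (Pearson r = 0.954, Spearman rho = 0.83), given as a description across regions that share their libraries. Without the 2 strongest regions r was 0.867, and over the 94 regions that remain after leaving out the strongest 25% by replicate 1, r was 0.646 and rho 0.666. Replicate 2 had the lower q in 78 of the 125 regions (62.4%), against 57% of regions elsewhere, and the median −log10 q was 8.16 in replicate 1 and 8.91 in replicate 2. A q-value depends on depth, which is unknown, so these values do not compare amounts of binding. Of the 10 strongest sites on III in replicate 1, 7 overlapped 1 of the 10 strongest of replicate 2, and of the 20 strongest 14 did so.

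**Figure D3:**
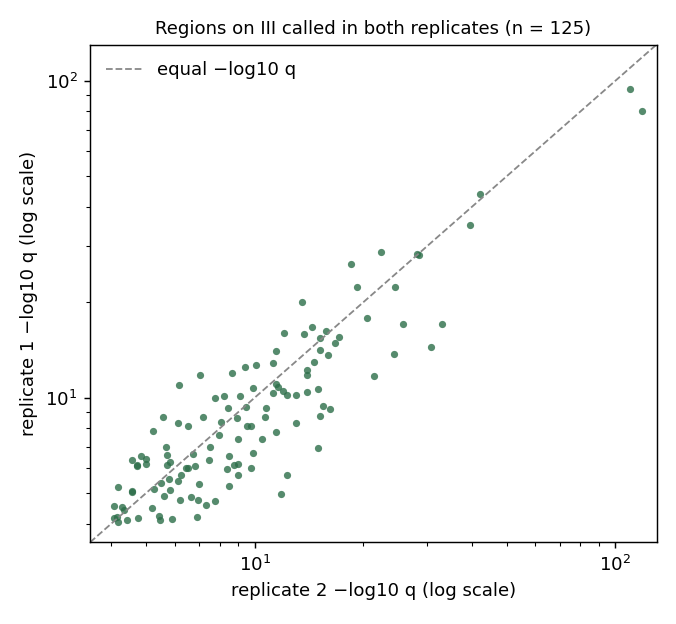
Strongest −log10 q of replicate 1 against that of replicate 2 in the 125 regions on III called in both, on log axes, with a dashed line at equal values. The points follow the line, with 78 regions on the side of replicate 2 and the pair of strongest regions at the upper right.

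Sites that only 1 replicate called were weak. In replicate 1 on III, median −log10 q was 4.82 over the 39 sites without a partner and 8.14 over the 130 with a partner, and median widths were 547 and 796 bp. In replicate 2 it was 4.72 over the 47 without and 8.68 over the 129 with a partner, and median widths were 536 and 834 bp. The other 5 chromosomes were alike, with medians of 4.78 without and 7.34 with a partner in replicate 1. In replicate 2 the medians there were 4.85 and 7.92. The strongest without a partner in replicate 1 was from 5917177 to 5917723 with q = 8.75e-08, and the combined list had a site there with q = 8.97e-11. In replicate 2 it was from 10152668 to 10153965 with q = 4.05e-11, with a combined site of q = 1.33e-11. Both were named after their values were seen.

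The second question is how far the combined list rests on sites seen in each sample. On III 121 of the 374 combined sites, or 32.4% (27.8 to 37.3%), met sites of both replicates, against 28.8% of all combined sites and 27.9% (25.7 to 30.3%) elsewhere. The difference between III and elsewhere was not tested, and III ranked 3 of 6, below II (34.7%) and X (34.5%). On III 31 sites met replicate 1 alone, 42 met replicate 2 alone, and 180 (48.1%, 43.1 to 53.2%) met neither, against 52.4% of all combined sites. Under the stricter demand that midpoints lie at most 100 bp apart, 12.6% of the sites on III and 12.8% of those elsewhere were found in both.

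Support on III followed strength and width. The lists come from the same ChIP samples, and a wider site has more room to overlap, so this is a description and not independent evidence. Sites found in both had a median −log10 q of 18.4, with a middle 50% from 11.3 to 30.2, and were typically 1153 bp wide (median). Sites found in neither had 5.01, with a middle 50% from 4.25 to 6.06, and 460.5 bp. Those found in replicate 1 alone had 7.41 and 733 bp, and those in replicate 2 alone had 7.92 and 626 bp. On the other 5 chromosomes the medians were near these, at 16.3 and 1094.5 bp for both and 4.95 and 505.5 bp for neither. When all 1828 combined sites were divided by q into 4 classes of like size, the strongest class, with −log10 q of 11.2 or more, held 101 sites on III. Of these 93 (92.1%, 85.1 to 95.9%) were found in both replicates, against 301 of 356 (84.6%, 80.4 to 87.9%) elsewhere. None of the 101 was found in neither, which allows a share of up to 2.97%, and 11 of 356 were elsewhere. In the next class, from 6.6 to 11.2, the share found in both was 25 of 100 on III (25%) and 24.4% elsewhere. In the class from 4.77 to 6.6 it was 2 of 87 on III (2.3%) and 4.59% elsewhere, and in the weakest class 1 of 86 on III and 1 of 371 elsewhere. Within a class of strength, the shares on III and elsewhere differed by less than 10 percentage points, and their intervals overlapped.

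**Figure D4:**
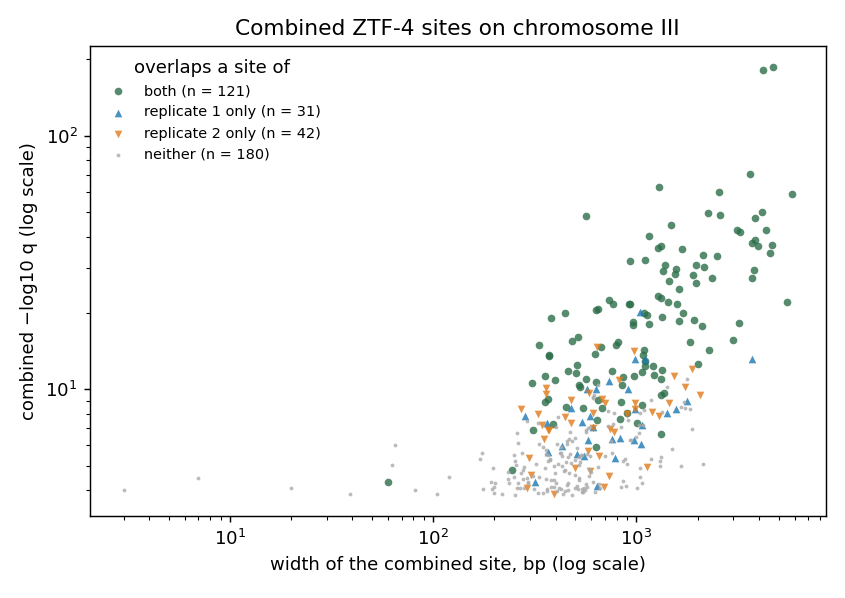
Combined −log10 q against the width of each of the 374 combined sites on III, on log axes, with symbols for the replicate lists that the site overlaps. The 121 sites found in both replicates lie to the upper right with a median of 18.4 and 1153 bp, and the 180 found in neither lie low with a median of 5.01 and 460.5 bp.

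The sites on III that neither replicate list held had a combined q of 9.83e-12 or more. The strongest 3 ran from 4502127 to 4503899 (1773 bp, q = 9.83e-12), from 8232503 to 8233152 (650 bp, q = 3.56e-11) and from 8977827 to 8979238 (1412 bp, q = 5.91e-11). They lay 191, 2652 and 2465 bp from the nearest replicate site. Most such sites lay farther than 2 kb from a replicate site. Of the 180 sites found in neither, 43 (23.9%) lay within 2 kb and 128 (71.1%) within 20 kb of a replicate site, with a median distance of 6880.5 bp. On the other 5 chromosomes the shares were 18.3% and 47.4% of 778 sites and the median 23349.5 bp. The share within 2 kb was much the same on II (23%) and IV (22.1%) as on III. On the single other chromosomes the median ran from 12139 bp on IV to 37371.5 bp on X. The replicate sites themselves were denser on III, with 25.1 of both lists together per Mb against 14.1 elsewhere, and the part of that density in the shorter distance was not tested.

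**Figure D5:**
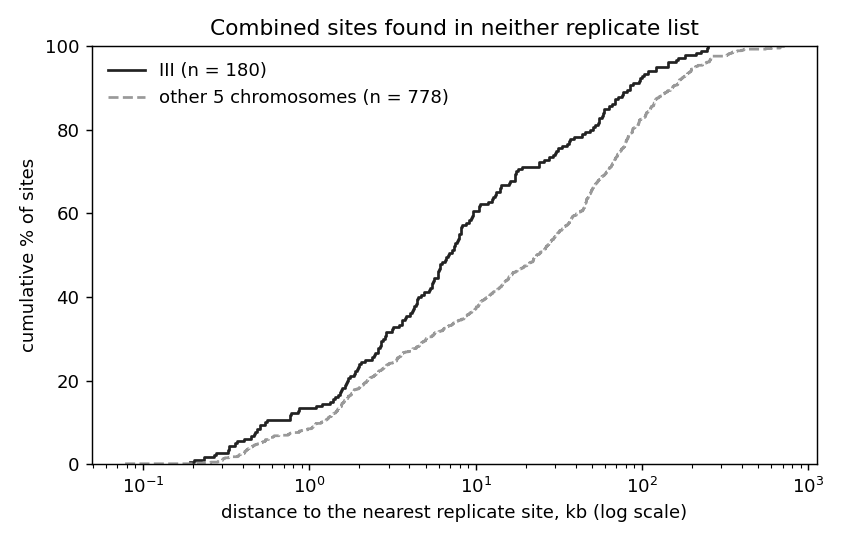
Cumulative percentage of the combined sites found in neither replicate list by their distance to the nearest replicate site, on a log axis in kb, for III (solid) and the other 5 chromosomes (dashed). At 20 kb the curve of III stands at 71.1% of 180 sites and the other at 47.4% of 778 sites.

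Sites on III lay in groups. With gaps under 20 kb, the 374 sites formed 145 groups, a mean of 2.58 sites each, against 1.98 elsewhere and 2.32 on I, the next highest. Denser sites form larger groups at a fixed gap. Sites on III were denser, at 27.2 per Mb against 16.9 elsewhere, and the part of that density in the group size was not tested. On III 59 sites stood alone, and 22 groups of 5 or more held 144 sites. Elsewhere 50 such groups held 316 of 1454 sites, and on I alone 18 held 120 of 357. Within 2 kb of another site lay 162 of the 374 sites (43.3%), against 39.3% elsewhere and 46.2% on II. The smallest gap between neighbours was 203 bp on III and 201 bp elsewhere. Of the 145 groups 78 held a site found in both replicates, and 104 met at least 1 replicate site. Of the 59 sites that stood alone 32 were found in neither replicate list and 14 in both. Over all combined sites on III the shares were 48.1% in neither and 32.4% in both, and over the whole list 52.4% and 28.8%. Support of groups and of lone sites is not given for the other chromosomes, and no difference was tested.

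The largest group, from 3771120 to 3812985, packed 10 combined sites into 41866 bp. Replicate 1 had 6 sites there and replicate 2 had 5. Of the 10, 4 were found in both replicates, among them the widest site of the chromosome. There were 5 groups of 8 sites. The one from 13060925 to 13093129, near the right end, had 4 sites found in both and a lowest q of 5.62e-43. The one from 7150352 to 7179927 had 3 found in both and a lowest q of 1.46e-36, and the one from 4475427 to 4506033 had 2 and a lowest q of 1.17e-20. The remaining groups of 8 were weak. From 5827878 to 5879766 the lowest q was 6.46e-11, with 1 site found in both, and from 6344683 to 6368005 it was 9.18e-10, with 1 found in both and 7 in neither. The groups of 8 thus held 1 to 4 sites found in both replicates, beside a share of 32.4% over all combined sites on III. These small counts were not tested, so they do not show that support differed between groups.

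At the other end of the scale, 8 combined sites on III were under 100 bp wide, or 2.14%, against 1.44% elsewhere and 2.97% on II. The narrowest were 3 bp (13551097 to 13551099, q = 9.55e-05), 7 bp (9853920 to 9853926, q = 3.48e-05) and 20 bp (4198436 to 4198455, q = 8.51e-05), all found in neither replicate list. The narrowest replicate sites on III were 65 bp wide in replicate 1 and 198 bp wide in replicate 2.

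Nearly every replicate site on III had a combined counterpart. In replicate 2 all 176 did (100%), against 97.8% over the whole list, and in replicate 1 164 of 169 did (97%), against 96.2%. None of the 125 regions called in both replicates on III lacked a combined site, which allows a share of up to 2.4%, and 10 of the 433 such regions elsewhere did. III did not stand alone in this, since all 156 replicate 2 sites on IV also had a combined counterpart. The 5 replicate 1 sites without a counterpart were weak and had no partner in replicate 2. The strongest 3 ran from 9868096 to 9868305 (q = 1.51e-05), from 8731035 to 8731358 (q = 2.23e-05) and from 931226 to 931702 (q = 4.39e-05).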

How the data were processed

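Site lists of the 2 ChIP samples and a combined list of the series were analysed. Per the file headers, the authors called sites with PeakSeq on WormBase WS180, and they deposited a start, an end and a q-value for each site. The q-value is the authors' own. The aligner, any filters on reads and the way the combined list was made were not given in the sources used here, nor was the version of PeakSeq. Input values were not analysed here. Groups and replicate numbers came from the sample titles.

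Computation used Python 3.11.15, pandas 2.3.3, scipy 1.17.1, statsmodels 0.14.6 and numpy 2.4.6, with matplotlib 3.10.9 for figures. Sites shared a place when they overlapped by at least 1 bp. Densities were tested with two-sided exact binomial tests against span, adjusted by Benjamini-Hochberg over 3 tests with a threshold of 0.05, with exact 95% intervals. Shares have 95% Wilson intervals. Intervals and tests treat sites as independent and cover counting error only. The overlap call was first tested on simulated sites and the binomial test on simulated independent counts. Those counts do not carry the grouping of the real sites. The limit beside a count of 0 is 3 counts of the total.

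The text names the 20 strongest combined sites on III found in both replicates, replicate sites without a combined site, the 3 strongest combined sites found in neither, the largest groups (6, since 5 tie at 8 sites), the widest and narrowest sites and the fullest and emptiest bin. The members and these rules were chosen with earlier results of these data known.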

Additional observations from a re-analysis of the deposited data

How the results depend on the processing

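The 3 density ratios of III over the other autosomes stayed above 1 in all 20 alternatives and past the threshold in 17 of them. The exceptions were those with sites within 20 kb counted once, at 1.21 for the whole chromosome, 1.17 for its centre and 1.28 for its outer parts. Groups on III held a mean of 2.58 sites, against 2.05 on the other 4 autosomes, so counting groups once lowers the ratio for the whole chromosome. Fewer items also enter that count. Why groups on III held more sites was not tested. In the list of replicate 2 alone the ratios were 1.68, 1.74 in the centre and 1.58 in the outer parts, and in that of replicate 1 alone 1.8, 2.06 and 1.38. The last of these passed narrowly (exact binomial adjusted p = 0.0442), and its 95% interval, 0.993 to 1.89, includes 1. The share of combined sites on III found in both replicates was 12.6% with midpoints within 100 bp, 85.6% among sites with q under 1e-10, 53.8% with nearby sites counted once, and 40.6 to 43.6% when a single replicate was asked for. An overlap of at least 50% of the narrower site left it at 32.4%. The share with q under 1e-10, 31.6%, was 73% at a limit of 1e-05 and 14.2% at 1e-20, and 29 to 29.5% in the replicate lists. The replicate overlaps of 76.9% and 73.3% were 44.4% and 42.6% with midpoints within 100 bp, and 100% and 98.1% for sites with q under 1e-10. The values of 85.6%, 53.8%, 100% and 98.1% are given for III alone, so they do not show whether III differs from the other chromosomes. The centre held 66.3% of the sites on III, 58.6% of the groups, and 45.7% when it was taken as the middle 33.3% of the span. On the other 4 autosomes together it held 61.9% of the sites, and singly between 57.8% on IV and 70% on V. No paired analysis was possible because ChIP and input share numbers only, and input values were not analysed here. Read depth is unknown, and how many weak sites each list misses was not tested.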
